A study of Arabidopsis thaliana with 48 samples.

Results

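The 9 type-A response regulator genes ARR3 (AT1G59940), ARR4 (AT1G10470), ARR5 (AT3G48100), ARR6 (AT5G62920), ARR7 (AT1G19050), ARR8 (AT2G41310), ARR9 (AT3G57040), ARR15 (AT1G74890) and ARR16 (AT2G40670) and the cytokinin oxidase gene CKX5 (AT1G75450) were followed in rosettes and other aerial parts of Arabidopsis thaliana under attack by spider mites. These 10 genes were picked by locus from the 33211 features of the count table, as 9 genes of 1 family and a gene of cytokinin breakdown. The choice was made with earlier results of these data known. Counts of calls among them, given below beside the share of all genes, are thus a description and not an independent test. All 12 groups were of the Columbia (col-0) ecotype and stood in a 16 h light cycle inside cylinders. Infested plants received 20 adult Tetranychus urticae females per plant at an age of 3 weeks, and control plants received none. Each kind of plant was harvested at 30 min and 24 h and then on days 4, 7, 12 and 15. A group consisted of 4 libraries, and 4 plants were pooled for each library, which the labels call a biological replicate. The plants grew older over the course, so each infested group was compared with the control group of its own time.

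Cytokinin is bound by histidine kinase receptors (AHK2, AHK3, AHK4), which pass phosphate through AHP proteins to type-B response regulators, the transcription factors that switch on the target genes. Type-A genes are among the first of those targets, and their short proteins take up phosphate without binding DNA and dampen the signal, so their RNA is widely used as a reading of cytokinin response. CKX enzymes break cytokinin down, and some CKX genes are themselves induced by the hormone.

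Upstream sequences of 4 of these genes are shown as examples: ARR7, ARR6 and ARR5, which were lower in infested plants at 4 d, and CKX5, which was higher. ARR4, ARR8, ARR9 and ARR15 were also lower at 4 d, and their sequences are not printed. The windows are the 250 bases before the annotated gene start in RefSeq TAIR10.1, printed 5′ to 3′ on the gene's strand. They lie at chr1:6579315-6579564 (ARR7), chr5:25254319-25254568 (ARR6), chr3:17760951-17761200 (ARR5) and chr1:28318376-28318625 (CKX5), all on the minus strand. Capitals mark AGATT, the core bound by type-B regulators, and the longer AGATCT, on either strand, and no match of one overlapped a match of the other.
ARR7: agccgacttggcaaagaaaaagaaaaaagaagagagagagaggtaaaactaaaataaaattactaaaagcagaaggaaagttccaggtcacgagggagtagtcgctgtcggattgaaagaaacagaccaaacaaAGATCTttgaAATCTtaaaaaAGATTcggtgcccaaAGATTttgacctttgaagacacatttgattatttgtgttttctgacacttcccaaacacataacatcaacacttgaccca
ARR6: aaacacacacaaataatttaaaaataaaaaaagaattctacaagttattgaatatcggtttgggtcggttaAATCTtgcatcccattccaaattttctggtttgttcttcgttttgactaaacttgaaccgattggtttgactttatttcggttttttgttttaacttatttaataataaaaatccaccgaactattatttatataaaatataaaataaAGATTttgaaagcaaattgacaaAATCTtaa
ARR5: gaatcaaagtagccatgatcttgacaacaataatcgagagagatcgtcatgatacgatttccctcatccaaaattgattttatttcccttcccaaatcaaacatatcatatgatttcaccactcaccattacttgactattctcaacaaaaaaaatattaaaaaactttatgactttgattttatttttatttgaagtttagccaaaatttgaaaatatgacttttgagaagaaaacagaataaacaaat
CKX5: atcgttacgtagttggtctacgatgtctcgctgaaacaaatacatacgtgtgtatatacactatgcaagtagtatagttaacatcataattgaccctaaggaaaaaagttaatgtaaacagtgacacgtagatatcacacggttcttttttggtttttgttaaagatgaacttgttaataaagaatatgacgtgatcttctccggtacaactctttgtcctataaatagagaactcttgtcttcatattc
ARR7 held 3 AGATT cores and 1 AGATCT, and ARR6 held 3 cores. ARR5 and CKX5 held neither motif in this window. Of the genes not printed, ARR4 held neither, ARR3, ARR8 and ARR15 held 1 core each, and ARR9 and ARR16 held 2 each. The printed windows thus take both ends of the core count, and their contrast comes from that choice. Among the 10 genes, 7 held AGATT, against 63.7% of 27443 protein-coding genes, and 9.26% of those held at least 3 cores. AGATCT was found in 1 of the 10 windows and in 5.98% of all. The evening element AAATATCT of clock-regulated promoters and the G-box CACGTG, each searched on both strands, were in none of the 10 windows and in 4.79% and 6.49% of all. A match is a run of letters and not a shown binding site.

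Library totals lay between 12.5 and 23.4 M counts, with a median of 18.9 M. The infested libraries at 30 min had the lowest totals of all, at 14.6, 12.5, 13.3 and 14.5 M. Their controls had 17.6 to 21.4 M, so depth and infestation went together at that harvest. The part of depth in the 30 min results was not tested. The median correlation of a library's log2 levels with those of the other 3 of its group, across genes, was 0.959 to 0.99, and control replicate 3 at 15 d had the lowest value. All 10 genes were among the 22252 that passed the filter on low counts, ARR3 through its 12 d libraries. Levels are counts per M counts after scaling (CPM), and a gene was called where edgeR's quasi-likelihood test gave a Benjamini-Hochberg adjusted p under 0.05 over all genes tested. Over all libraries the mean log2 CPM ran from 2.23 (ARR16) to 6.38 (ARR4) for 9 of them and was -2.18 for ARR3.

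Most type-A genes were lower in infested plants, with calls at different times. ARR4, ARR8, ARR9, ARR15 and ARR16 were called lower at 30 min, ARR5, ARR6 and ARR7 were first called lower at 4 d, and CKX5 was higher from 30 min to 7 d. For ARR6 the change of the effect from 24 h to 4 d was not called (-0.48, adjusted p = 0.44, edgeR). For ARR4 no change over the times was called (adjusted p = 0.39), so a difference in period is not shown for these genes. At 30 min, 1 of the 10 genes was called higher and 5 were called lower, where 13.3% and 9.71% of all genes tested were called. At 24 h the counts were 1 and 2 (13% and 10.2% of all genes), and at 4 d they were 1 and 7 (8.68% and 7.68%). At 7 d they were 1 and 5 (6.16% and 7.59%), at 12 d 0 and 3 (7.78% and 8.3%), and at 15 d 1 and 2 (8.67% and 9.68%). The median log2 fold change of all genes tested stayed between -0.02 and 0.01 from the first time to the last. As a mean over the 6 times, 1 gene was called higher and 7 lower (16.4% and 15.7% of all genes). ARR16 and ARR3 were not called in that mean. The harvests are whole aerial parts, so fewer cells that express a gene and less RNA per cell cannot be told apart.

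**Figure D1:**
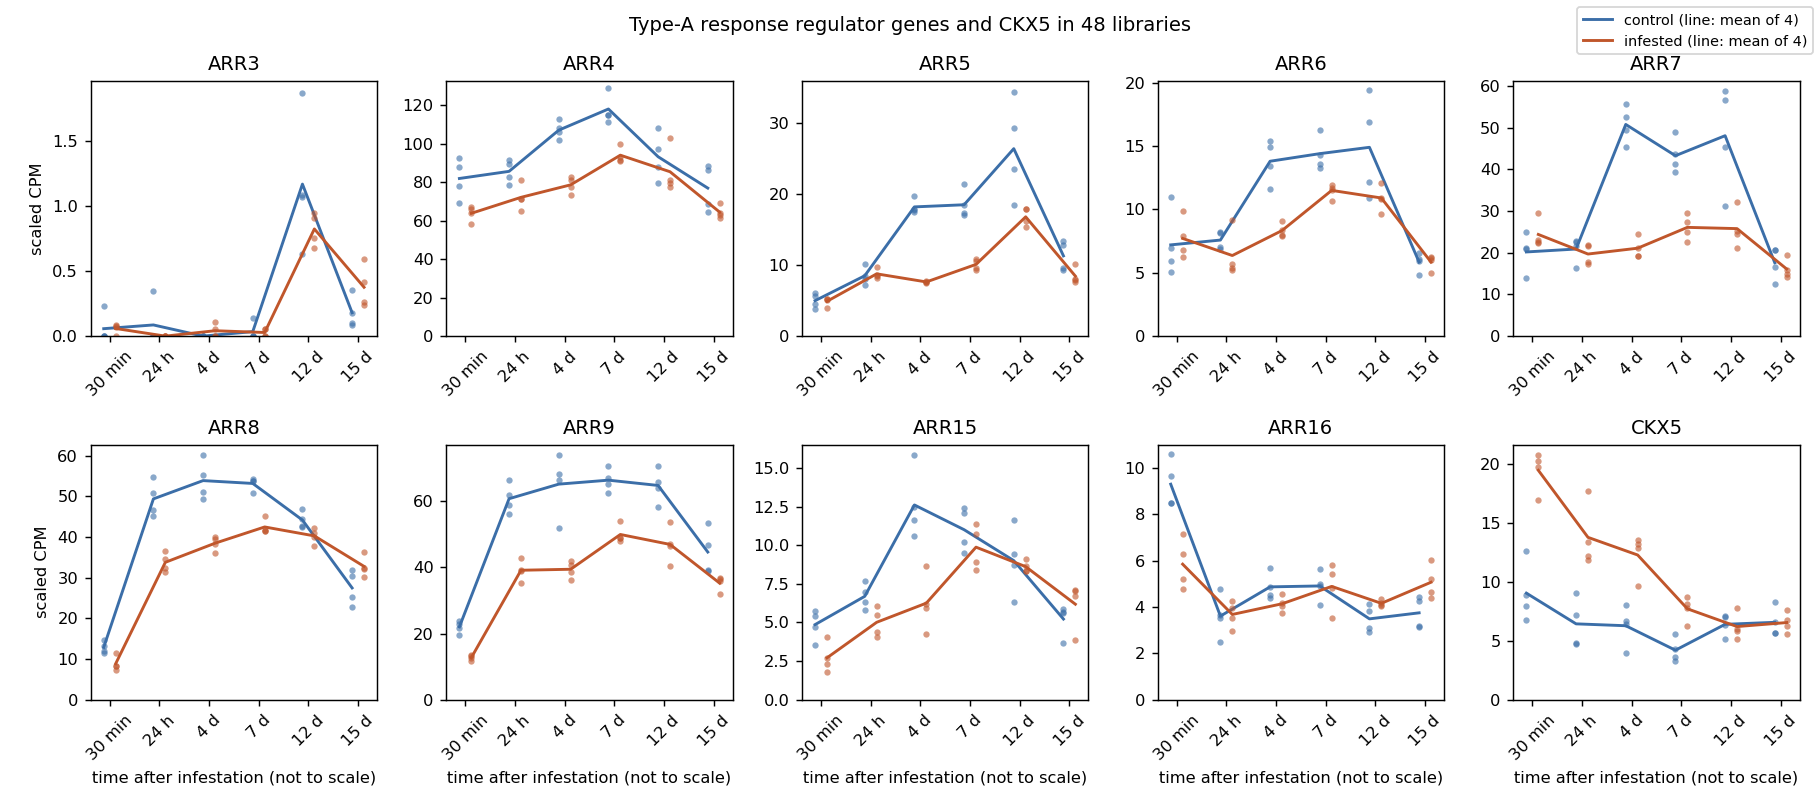
Scaled CPM (linear axis from 0) of the 10 genes in each of the 48 libraries against harvest time; points are libraries, lines join the means of 4. Infested libraries of ARR9 lie under the control libraries at every time, and those of CKX5 lie above them up to 7 d.

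**Figure D2:**
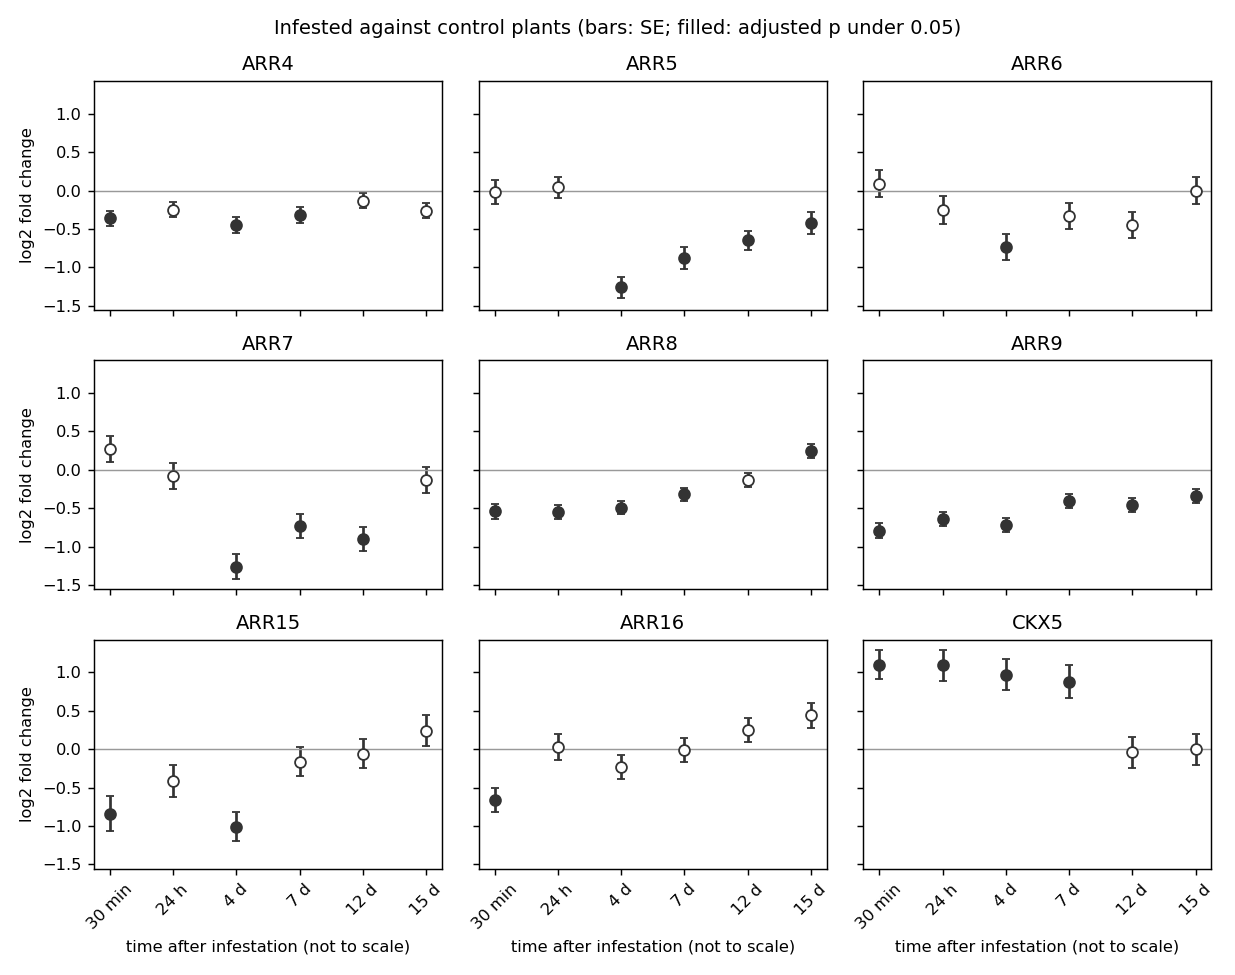
Log2 fold change of infested against control plants at each harvest, with its SE as bars; filled points passed an adjusted p of 0.05. ARR3 is left out because it had almost no reads before 12 d. ARR9 was filled at all 6 times, ARR5 at every time from 4 d, and ARR7 at 4 d, 7 d and 12 d.

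ARR9 and ARR8 are a pair of closely related type-A genes. ARR9 had 22.8, 19.4, 21.8 and 23.8 CPM in the control libraries at 30 min and 13.3, 11.6, 12.5 and 13.4 CPM in the infested ones. Every infested library was thus under every control library at the first harvest, and this held at each of the later times too. The log2 fold change was -0.79 (SE 0.10, adjusted p = 6.8e-08, edgeR) at 30 min, -0.64 (9.4e-07) at 24 h, -0.72 (1.2e-07) at 4 d, -0.41 (0.0016) at 7 d, -0.46 (0.00037) at 12 d and -0.34 (0.0086) at 15 d. The 15 d call was lost with the libraries of that time alone (adjusted p = 0.11) and without control replicate 1 (0.069), the highest values over its alternatives. Its mean over the course was -0.56 (SE 0.04, adjusted p = 4.5e-15). At 4 d the infested libraries had 40.8, 38.7, 42 and 36.3 CPM and the controls 73.9, 68.3, 66.4 and 51.9 CPM. The effect of infestation on ARR9 varied over the times (adjusted p = 0.025 for the interaction). Its point values were smaller from 7 d, but the change of the effect from 4 d to 7 d was not called (0.31, adjusted p = 0.19).

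ARR8 was also lower in infested plants at the first 4 harvests. It had 14.7, 11.6, 12 and 13.2 CPM in control and 8.37, 11.4, 8.28 and 7.38 CPM in infested plants at 30 min, with no overlap between the groups. Log2 fold changes were -0.54 (SE 0.10, adjusted p = 7.4e-05), -0.55 (6.3e-06), -0.49 (6.1e-05) and -0.32 (0.0093) at the first 4 harvests. At 12 d the infested libraries (37.7 to 42.3 CPM) still lay just under the controls (42.6 to 47 CPM), but the difference of -0.13 did not pass the test (adjusted p = 0.33). At 15 d ARR8 was higher in infested plants, at 32.8 ± 2.62 against 27.5 ± 4.27 CPM (SD, n = 4). The groups overlapped, with 3 infested libraries at 32.1 to 36.4 CPM above the highest control at 31.8 CPM, and the log2 fold change of 0.25 (SE 0.09) was called at an adjusted p of 0.044. The call was lost when control replicate 2 or 4 was left out (adjusted p = 0.24 and 0.16) or infested replicate 2, 3 or 4 (0.081, 0.14 and 0.057), with scaling by library totals (0.12) and with the 15 d libraries alone (0.18), and the range over all alternatives went up to 0.24. The interaction over the times was called (adjusted p = 4.1e-06).

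The log2 ratio of ARR8 to ARR9, which needs no scaling between libraries, was -0.69 ± 0.08 in control and -0.10 ± 0.13 in infested plants at 15 d (SD, n = 4 each, pseudocount 0.5 CPM), a difference of 0.58. The ratios of the 2 groups did not overlap, which gives the smallest p an exact two-sided permutation test of 4 against 4 allows, 0.0286, and 0.0572 after adjustment over the 18 ratio tests made. At 12 d the difference was 0.33 and at 7 d 0.09, with the same p-values. At 30 min, 24 h and 4 d it was 0.24, 0.09 and 0.23, with exact p-values from 0.171 to 0.257. These ratio tests were chosen after the values were seen, and none passed after adjustment.

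ARR5, ARR6, ARR7 and ARR15 are type-A genes strongly induced by cytokinin; ARR7 and ARR15 also act in the shoot meristem. ARR5 had 3.88, 5.62, 4.46 and 6.01 CPM in control and 5.12, 3.92, 5.28 and 5.28 CPM in infested plants at 30 min, where the groups overlapped fully. At 24 h they also overlapped (7.24 to 10.2 against 8.19 to 9.78 CPM). At 4 d the control libraries had 17.9, 17.7, 17.5 and 19.8 CPM and the infested ones 7.83, 7.56, 7.52 and 7.62 CPM. Control plants had thus moved to a level at which no infested library was found at 4 d or 7 d. The log2 fold change at 4 d was -1.26 (SE 0.14, adjusted p = 5e-09), and the change of the effect from 24 h to 4 d was -1.30 (SE 0.20, adjusted p = 1.4e-05, interaction), a step called for 3.36% of all genes. Later point values were -0.88 (7.9e-06) at 7 d, -0.65 (0.00042) at 12 d and -0.42 (0.027) at 15 d. They were smaller at each harvest, but no change of the effect between neighbouring harvests after 4 d was called. These changes were 0.37, 0.23 and 0.23 (adjusted p = 0.33, 0.66 and 0.75, interaction). The 15 d call was lost when control replicate 1 or 3 was left out (adjusted p = 0.09 and 0.095) or infested replicate 1, 3 or 4 (0.074, 0.06 and 0.073), and with the 15 d libraries alone (0.13).

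ARR7 showed the same step. Control libraries had 22.9, 22.6, 16.4 and 21.6 CPM at 24 h and 49.5, 52.6, 55.6 and 45.3 CPM at 4 d. Infested libraries had 17.9, 17.4, 21.9 and 21.6 CPM at 24 h and 19.3, 21.2, 19.3 and 24.6 CPM at 4 d. The gene rose from 24 h to 4 d in control plants (log2 fold change 1.28, adjusted p = 2.6e-07), and the infested groups of the 2 times overlapped. Infested against control was -1.26 (SE 0.16, adjusted p = 1.9e-07) at 4 d, -0.73 (0.0014) at 7 d and -0.90 (0.00011) at 12 d, and the step from 24 h to 4 d was -1.18 (SE 0.24, adjusted p = 0.00083). At 30 min (0.27), 24 h (-0.08) and 15 d (-0.13) the difference did not pass the test (adjusted p = 0.29, 0.81 and 0.64). ARR7 at 12 d varied most in the controls, which had 45.5, 56.6, 58.9 and 31.2 CPM against 32.3, 25.2, 24.5 and 21.2 CPM; the lowest control library lay under the highest infested one.

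ARR6 had 13.8 ± 1.72 CPM in control and 8.33 ± 0.544 CPM in infested plants at 4 d (SD, n = 4), and the highest infested library (9.09 CPM) lay under the lowest control (11.6 CPM). The log2 fold change was -0.73 (SE 0.17, adjusted p = 0.0016), and 4 d was the only time at which this gene was called. At 7 d its groups did not overlap either (13.3 to 16.3 against 10.7 to 11.9 CPM), with -0.33 (adjusted p = 0.21), and at 12 d the value was -0.45 (0.054). The interaction over the times missed the threshold (adjusted p = 0.055).

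ARR15 was called lower at 30 min and at 4 d. It had 5.77, 4.73, 3.54 and 5.4 CPM in control and 4.04, 2.67, 1.81 and 2.32 CPM in infested plants at 30 min, where 1 infested library reached into the control range. The log2 fold change was -0.84 (SE 0.23, adjusted p = 0.0055). At 24 h it was -0.41 (SE 0.21, adjusted p = 0.16, edgeR), which was not called. The effect was not called as changed from 30 min to 24 h (0.42, adjusted p = 0.46, interaction) or from 24 h to 4 d (-0.6, 0.37). Separate periods of lower ARR15 are thus not shown. At 4 d the 10.6, 15.8, 12.5 and 11.6 CPM of the controls stood above the 4.24, 8.68, 6.17 and 5.91 CPM of the infested libraries, a change of -1.01 (SE 0.19, adjusted p = 0.00014). From 7 d the values were -0.16, -0.06 and 0.24, with adjusted p from 0.44 to 0.87. ARR7 and ARR15 are a closely related pair. At 30 min their log2 ratio was 2.99 ± 0.56 in infested and 1.94 ± 0.23 in control plants (SD, n = 4 each; difference 1.05, exact permutation p = 0.0286, adjusted 0.0572). Infested minus control, that ratio stood at -0.57 at 7 d and -0.83 at 12 d (the same p-values). For ARR5 to ARR6 it stood at -0.51 at 4 d, -0.53 at 7 d and -0.40 at 15 d (exact permutation p = 0.0286 each, adjusted 0.0572).

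ARR4, whose protein also binds the light receptor phytochrome B, had log2 fold changes under 0 at all 6 times, none of them beyond -0.45. At 4 d it had 108, 106, 113 and 102 CPM in control and 73.1, 80.9, 77.7 and 82.6 CPM in infested plants, which did not overlap. Log2 fold changes were -0.36 (SE 0.10, adjusted p = 0.0042) at 30 min, -0.45 (SE 0.10, 0.00054) at 4 d and -0.32 (SE 0.10, 0.017) at 7 d. The 7 d call ended without control replicate 1 (adjusted p = 0.054, the highest over the alternatives). At 24 h, 12 d and 15 d the values were -0.25, -0.13 and -0.26 (adjusted p = 0.056, 0.41 and 0.054). No change of the effect over the times was called (adjusted p = 0.39), and the mean over the course was -0.29 (SE 0.04, adjusted p = 6.7e-08).

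ARR16 and its relative ARR17 are the most divergent of the type-A genes. ARR16 had 9.65, 8.48, 10.6 and 8.49 CPM in control and 7.14, 4.76, 5.2 and 6.3 CPM in infested plants at 30 min, without overlap. The log2 fold change was -0.66 (SE 0.16, adjusted p = 0.0013), and it was 0.03 (0.96) at 24 h, a change of effect of 0.69 (SE 0.23, adjusted p = 0.046) between the 2 times, called for 11% of all genes. Later values ran from -0.23 at 4 d to 0.44 at 15 d, where an adjusted p of 0.05 just missed the threshold. At 15 d the infested libraries had 6.05, 4.64, 5.21 and 4.4 CPM and the controls 4.44, 4.24, 3.12 and 3.19 CPM, so the groups met at their edges. ARR17 did not pass the filter on low counts, with at most 6 counts in any group.

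ARR3, the close relative of ARR4, gave 237 counts in all, and 22 of the 48 libraries had none. It had 23, 45, 22 and 14 counts in control and 14, 19, 13 and 19 counts in infested plants at 12 d. At 15 d there were 15 counts over the 4 control and 32 over the 4 infested libraries, and no other group had more than 6. In these harvests ARR3 was thus found almost solely in the oldest plants, and infested and control plants were not called different at any time. No fold change is given at such counts.

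CKX5 went the other way. Its control libraries had 8.92, 12.6, 8 and 6.78 CPM at 30 min and its infested libraries 20.8, 17, 20.3 and 19.8 CPM. At 24 h the values were 4.7, 9.06, 7.21 and 4.81 CPM against 11.9 to 17.7 CPM. Infested libraries lay above all controls at these times and also at 4 d (9.65 to 13.6 against 3.99 to 8.04 CPM) and 7 d (6.25 to 8.7 against 3.27 to 5.6 CPM). Log2 fold changes were 1.10 (SE 0.19, adjusted p = 1.5e-05), 1.09 (SE 0.20, 2.8e-05), 0.97 (SE 0.20, 0.00024) and 0.88 (SE 0.21, 0.0021). The groups overlapped at 12 d and 15 d, with -0.04 and 0 (adjusted p = 0.92 and 0.99), and the effect varied over the times (adjusted p = 0.00022). CKX5 was thus the one gene of the 10 called higher before 15 d. From 4 d to 7 d it fell in infested plants (log2 fold change -0.67, adjusted p = 0.027, edgeR). Control plants had -0.59 over that step (adjusted p = 0.064), and the effect of infestation changed by only -0.09 (0.95).

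In all, 9 of the 10 genes differed at some time (52.9% of all genes), and for 7 the effect changed over the times (41.1% of all genes); ARR3, ARR4 and ARR6 were the exceptions to the latter. Between neighbouring harvests only 3 such changes were called among the 10 genes, those of ARR16, ARR5 and ARR7 given above. None was called from 4 d to 7 d, from 7 d to 12 d or from 12 d to 15 d, where 3.57%, 2% and 0.706% of all genes were.

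The control plants themselves changed for all 10 genes over the course, as did 85.3% of all genes. From 30 min to 24 h, ARR8 rose by a log2 fold change of 1.94 (SE 0.09, adjusted p = 1.1e-20), ARR9 by 1.47 (SE 0.10, 7.9e-17) and ARR5 by 0.77 (4e-05), while ARR16 fell by 1.36 (1.7e-09) and CKX5 by 0.49 (0.039). These 3 rises and 2 falls compare with 22.1% and 21.4% of all genes. Control ARR8 went from 11.6 to 14.7 CPM in the 4 libraries at 30 min to between 45.3 and 54.8 CPM at 24 h. The morning clock gene CCA1 had 109 to 145 CPM in control libraries at 30 min and 219 to 292 CPM at all later times, so the first harvest also differed from the later ones in a gene that follows the hour of day. Infested plants made the same step in ARR8 (1.94, adjusted p = 3.9e-20) and ARR9 (1.62, 1.7e-17), among 4 rises and 2 falls (25.8% and 25.3% of all genes).

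From 24 h to 4 d, 5 genes rose in control plants and none fell (5.87% and 3.55% of all genes): ARR7 by 1.28, ARR5 by 1.10 (adjusted p = 1.2e-07), ARR15 by 0.92 (0.00094), ARR6 by 0.87 (0.00039) and ARR4 by 0.32 (0.022). None of the 10 was called in infested plants over that step (3.17% higher and 2.43% lower among all genes). No gene of the 10 was called from 4 d to 7 d in controls (6.31% and 3.48%), while 2 rose and 1 fell in infested plants (2.61% and 2.59%), ARR15 by 0.66 (0.038) and ARR9 by 0.34 (0.022) upward and CKX5 downward. The effect of infestation was not called as changed over that step for any of these, and control CKX5 had -0.59 (0.064). From 7 d to 12 d, 3 rose and 3 fell in controls (20% and 17.8% of all genes), among them ARR5 with 0.51 (0.0015). From 12 d to 15 d, 8 fell and none rose (16% and 18.4% of all genes). Control ARR7 dropped by 1.45 (adjusted p = 1.9e-08), ARR6 by 1.35 (9.9e-08) and ARR5 by 1.22 (5.3e-09), and ARR4, ARR8, ARR9 and ARR15 were also among the falls. ARR3 is counted among the 3 rises to 12 d and the 8 falls after it, but its 12 d libraries are those that let it pass the filter on low counts, so these calls and its change over the control course support nothing. In infested plants 6 fell and none rose over that step (14.6% and 16.4% of all genes), ARR7 by 0.68 (0.0018) and ARR5 by 0.99 (3.6e-07). Over the whole course of the controls, from 30 min to 15 d, 3 rose (36.4% of all genes) and 2 fell (28.4%): ARR5, ARR8 and ARR9 rose by 1.18, 1.10 and 1.02, ARR16 fell by 1.31 and CKX5 by 0.47. The CKX5 fall was not called when libraries were scaled by their totals (adjusted p = 0.23).

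Ordered by group, ARR5 ran from 26.4 ± 6.94 CPM (SD, n = 4) in control plants at 12 d, through 18.5 ± 2.02 and 18.2 ± 1.04 CPM in controls at 7 d and 4 d and 16.8 ± 1.29 CPM in infested plants at 12 d, to 4.90 ± 0.656 CPM in infested plants at 30 min. The 7 d and 4 d controls differed by less than their spread. For ARR7 the 3 highest groups were the controls at 4 d, 12 d and 7 d (50.8 ± 4.37, 48.1 ± 12.7 and 43.3 ± 4.16 CPM), which did not differ beyond their spread. A gap followed, and the other 9 groups lay between 26.1 ± 3.01 and 16.1 ± 2.34 CPM with neighbours within their spread. ARR9 was highest in the 4 control groups from 24 h to 12 d (60.7 to 66.3 CPM, neighbours within their spread) and lowest in the infested plants at 30 min (12.7 ± 0.827 CPM), under the controls of that time (22.0 ± 1.90 CPM). CKX5 had its 3 highest groups in infested plants, at 30 min (19.5 ± 1.71 CPM), 24 h (13.8 ± 2.68 CPM) and 4 d, and its lowest in controls at 7 d (4.21 ± 1.02 CPM).

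Divided by exon length (CPM per kb), ARR4 and ARR7 were the most abundant of the 10 RNAs in most groups. In control plants at 4 d, ARR7 stood at 53.8 ± 4.63 CPM per kb and ARR4 at 51.0 ± 2.10 (SD, n = 4), which overlapped, followed by ARR9 at 34.4 ± 4.95 and ARR8 at 22.8 ± 2.03. ARR5 (12.6), ARR15 (11.7) and ARR6 (9.47) came next, and ARR16 (2.34) and CKX5 (2.31) were near the bottom. In infested plants of that time ARR4 led with 37.4 ± 1.98 CPM per kb and ARR7 was at 22.4 ± 2.64, close to ARR9 at 20.8 ± 1.31. At 30 min CKX5 stood near the bottom in control plants at 3.32 ± 0.912 CPM per kb, within the spread of ARR5 (3.44 ± 0.684). In infested plants it had 7.13 ± 0.628 CPM per kb, behind ARR4 and ARR7 and within the spread of ARR9 (6.7 ± 0.437).

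The shared course of these genes can be described by correlations of log2 CPM over the 12 group means, which share harvest times and depth. ARR8 and ARR9 had the highest r (0.96), followed by ARR6 and ARR7 (0.94). CKX5 ran against ARR15 (-0.79), ARR9 (-0.78) and ARR5 (-0.70), and ARR16 against ARR8 (-0.64) and ARR9 (-0.61). Over the 48 deviations of single libraries from their group mean the pairs were weaker: ARR4 with ARR7 had 0.62, ARR5 with ARR7 0.58 and ARR8 with ARR9 0.38. An r over group means reflects only differences between groups, and these values of r were not compared by a test.

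**Figure D3:**
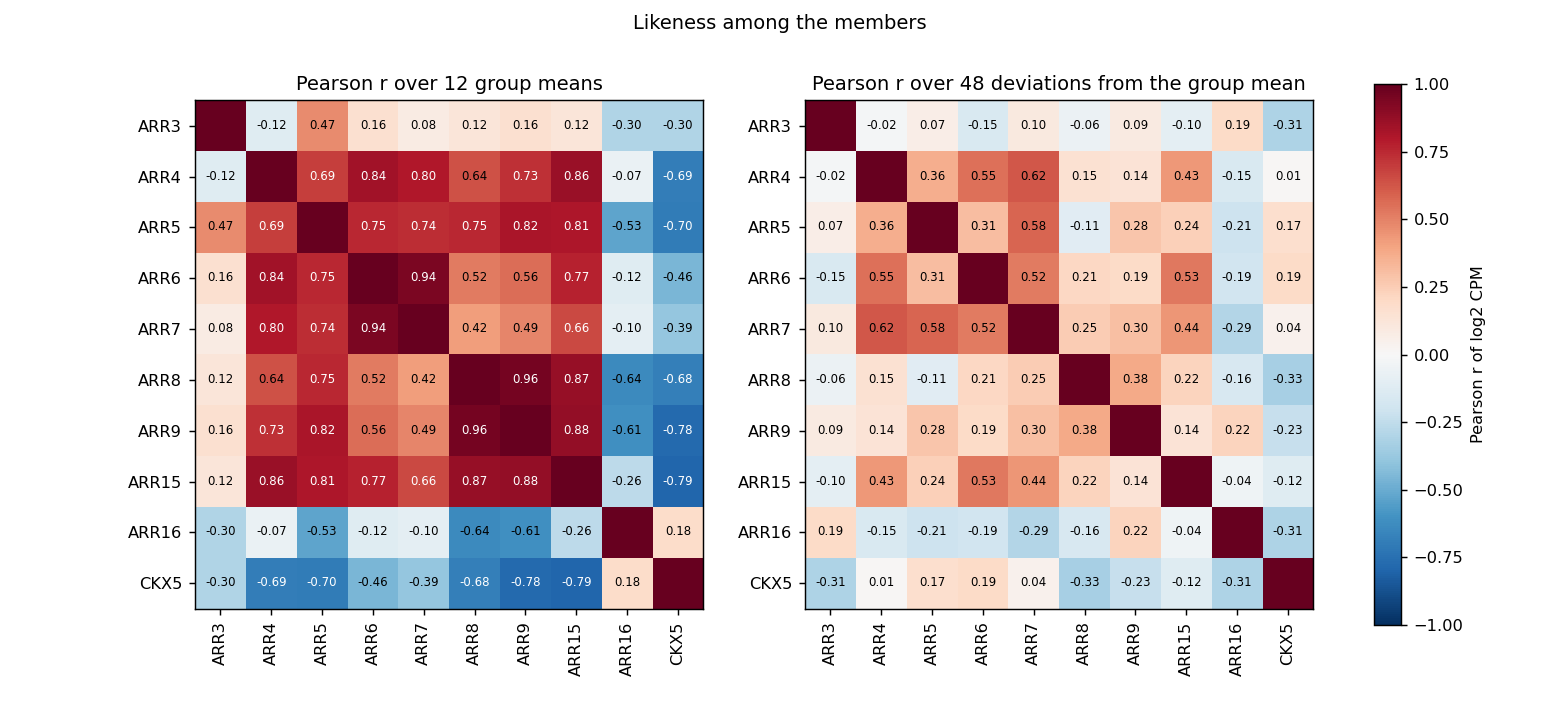
Pearson r of log2 CPM between each pair of the 10 genes over 12 group means (left) and over 48 deviations of libraries from their group mean (right); red is positive, blue negative. ARR16 and CKX5 are negative against most type-A genes on the left, and ARR8 with ARR9 falls from 0.96 to 0.38 on the right.

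The mean type-A profile averaged all type-A genes, ARR3 included. ARR3 had most of its few reads at 12 d and so raised that profile there, which limits what the likeness says of the other genes. The genes most like the mean type-A profile over the 12 group means, among 17374 candidates whose mean log2 CPM reached 1, were AT3G11590 (r = 0.945), AT3G24110 (0.944), AT1G12530 (0.931), MAKR1 (0.929) and SIP2;1 (0.923). Those most like CKX5 were NUDT8 (0.952), AT4G08170 (0.95), AT2G39420 (0.947), ILL6 (0.946), a hydrolase gene of the amidohydrolase family, and GCL1 (0.943).

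Other genes of the pathway were read from lists of 66 loci, of which 54 passed the filter on low counts. At 30 min 12 were higher and 5 lower in infested plants, at 24 h 7 and 6, at 4 d 1 and 12, at 7 d 2 and 6, at 12 d 4 and 8 and at 15 d 3 and 10. Over all genes tested, rises also outnumbered falls at 30 min (13.3% and 9.71%) and 24 h (13% and 10.2%). Falls outnumbered rises at 7 d (7.59% and 6.16%), 12 d (8.3% and 7.78%) and 15 d (9.68% and 8.67%). The counts of the lists at 24 h were near the shares of all genes. At 4 d the list had 1 rise and 12 falls, where 8.68% of all genes were higher and 7.68% lower.

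Of 13 synthesis genes tested, IPT3, which makes the cytokinin precursor in the phloem, had 16.7 to 25.4 CPM in control (mean 21.6 ± 3.96, SD, n = 4) and 8.87, 13.1, 11.8 and 12.6 CPM in infested plants at 4 d. The groups did not overlap, and IPT3 was the one gene of the list called at that time (log2 fold change -0.89, SE 0.14, adjusted p = 5e-06). At 15 d it was higher in infested plants (0.66, adjusted p = 0.0013). LOG1, an enzyme gene that frees the active hormone, was higher at 30 min (0.52, adjusted p = 0.00073) and lower at 7 d (-0.39), 12 d (-0.67) and 15 d (-0.83, adjusted p = 3.5e-06). LOG6 was higher at 30 min (1.28, adjusted p = 0.0027) and 24 h (0.97), and IPT9, which acts on transfer RNA, was higher at 7 d (0.31) and 12 d (0.43).

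Of the 9 breakdown and conjugation genes, CKX4 rose with CKX5. It had 5.66, 11.2, 6.63 and 5.68 CPM in control and 38.2, 34.7, 31.9 and 28.9 CPM in infested plants at 30 min. The groups stood far apart then and at 24 h, with log2 fold changes of 2.19 (SE 0.26, adjusted p = 1.4e-08) and 1.65 (2.9e-06), and CKX4 was not called from 4 d. UGT85A1, which conjugates zeatin to a sugar, was higher at 30 min (1.79, adjusted p = 8.4e-06). CKX6 was lower at 24 h (-0.69), 4 d (-0.47), 7 d (-0.40) and 12 d (-0.37), CKX1 was higher at 7 d (0.86) and 15 d (0.99), and the glucosyltransferase gene UGT76C2 was lower at 4 d (-0.55) and higher at 12 d (0.85). In all, 2 of these 9 were higher and 1 lower at 30 min, 3 and 2 at 24 h, 0 and 3 at 4 d, 1 and 1 at 7 d and 12 d, and 1 and 0 at 15 d.

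Among the 3 receptor genes AHK2 was lower at 30 min, with 37, 39.3, 41.2 and 36.3 CPM in infested and 52, 60.5, 63 and 77.5 CPM in control plants. The log2 fold change was -0.72 (SE 0.12, adjusted p = 4.3e-06) and -0.32 (0.039) at 24 h, and no receptor gene was called later. Of the 6 phosphotransfer genes AHP5 was called, at 0.38 at 30 min, 0.29 at 24 h and -0.25 at 7 d. Of the 7 type-B genes tested, none was higher and 1 was lower at each of 30 min, 24 h, 4 d and 7 d, none was called at 12 d, and 1 was higher and 2 were lower at 15 d. ARR14 was lower at 30 min (-0.77, adjusted p = 7.4e-07) and 24 h (-0.43), ARR12 at 4 d (-0.23), ARR2 at 7 d (-0.46) and 15 d (-0.39), and ARR11 at 15 d (-0.62). The gene higher at 15 d was ARR14 (0.30, adjusted p = 0.043), named here after its values were seen. ARR22, a type-C gene tied to flowers and seeds, had 29 counts in control and none in infested plants at 12 d.

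The F-box genes KMD1 to KMD4, whose proteins mark type-B regulators for breakdown, were 3 higher and none lower at 30 min, 1 and 1 at 24 h, none and 3 at 4 d, none called at 7 d, none and 2 at 12 d and none and 3 at 15 d. KMD1 had 124, 106, 102 and 61.8 CPM in control and 33.0 ± 3.03 CPM (SD, n = 4), with 35.7 CPM at most, in infested plants at 4 d. Its groups did not overlap (log2 fold change -1.57, SE 0.24, adjusted p = 4.6e-06), and it was lower again at 15 d (-1.45, adjusted p = 3.4e-05). KMD2 was higher at 30 min (1.27, adjusted p = 4.2e-07) and lower at 15 d (-1.02). PUP14, a carrier that takes cytokinin into cells, went from 0.88 (adjusted p = 0.00015) at 30 min to -1.49 (adjusted p = 4.2e-08) at 4 d, and stayed lower at 7 d (-0.83), 12 d (-0.51) and 15 d (-0.68).

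The 9 transcription factors tied to the response were 3 higher and 2 lower at 30 min, 1 and 1 at 24 h, 1 and 3 at 4 d, none and 1 at 7 d, 2 and 1 at 12 d and none and 2 at 15 d. CRF4 (1.27) and CRF6 (0.81) were higher at 30 min, CRF3 at 24 h (1.28), and CRF1 at 4 d (1.17) and 12 d (0.99). The GATA factor gene CGA1 was lower at 7 d (-0.54) and 15 d (-0.72), and GNC, its relative, at 24 h (-0.35).

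**Figure D4:**
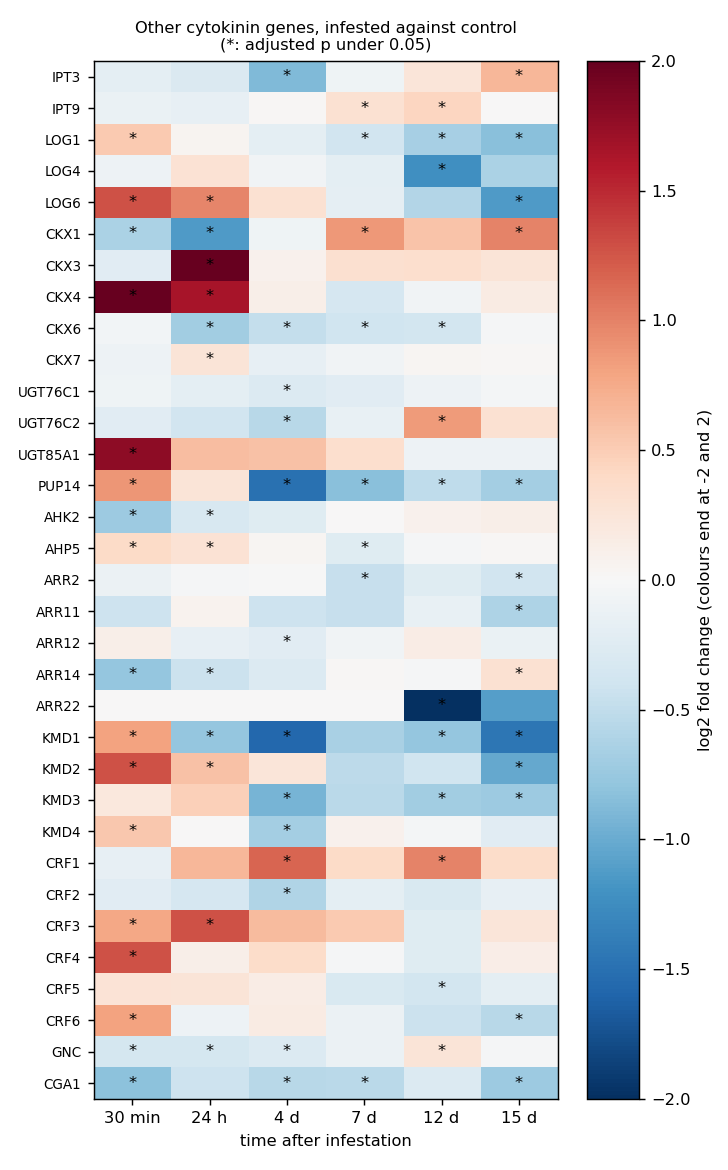
Log2 fold change of infested against control plants for the other cytokinin genes that were called at any harvest; colour runs from blue (lower) to red (higher), ends at -2 and 2, and asterisks mark an adjusted p under 0.05. KMD1 and PUP14 turn from red at 30 min to blue at 4 d; ARR22 had no counts in infested plants at 12 d, so its colour there is not a measured size.

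Several states moved with these results. The 8 touch and wound genes (such as ERF104, WRKY40 and TCH4) were all higher in infested plants at 30 min, and 5 were higher at 24 h; 7 were lower at 4 d, 7 at 7 d, 7 at 12 d and 6 at 15 d. Their summed level was 251 to 484 CPM in control and 74.8 to 98.7 CPM in infested libraries at 4 d, and 44.5 to 60.1 CPM in control libraries at 24 h. The touch sum of control plants thus rose over the same step as in ARR5, ARR6, ARR7 and ARR15. Within the 4 d controls, replicates 1 and 4 had the higher touch sums (406 and 484 CPM) and replicates 2 and 3 the lower (276 and 251 CPM), while ARR7 was at 49.5, 45.3, 52.6 and 55.6 CPM in that order. At 12 d control replicate 4 was lowest in the touch sum (123 CPM), in ARR7 and in ARR5 (18.4 CPM). At 15 d the touch sum was 200 to 286 CPM in control and 56 to 77.1 CPM in infested libraries, and ARR7 did not differ. Over the 12 group means the touch list had r = 0.68 with ARR7, 0.44 with ARR5 and 0.09 with ARR9, and over the 48 deviations 0.33, 0.49 and 0.22. The part of this state in the result was not tested.

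CCA1 was at 109 to 145 CPM in control and 104 to 136 CPM in infested plants at 30 min, at 235 to 270 against 140 to 155 CPM at 24 h, and at 240 to 262 against 184 to 189 CPM at 4 d. The CCA1 groups overlapped at 30 min and lay apart at 24 h (log2 fold change -0.82, adjusted p = 3e-10) and 4 d (-0.43, 0.00015). CCA1 and LHY together had r = 0.87 with ARR8 and 0.88 with ARR9 over group means, and 0.02 and -0.24 over the deviations. Of the 9 clock genes, 2 were higher and 1 lower at 30 min, 1 and 3 at 24 h, 1 and 2 at 4 d, 0 and 3 at 7 d, 1 and 2 at 12 d and 2 and 2 at 15 d. The part of the clock in the result was not tested.

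**Figure D5:**
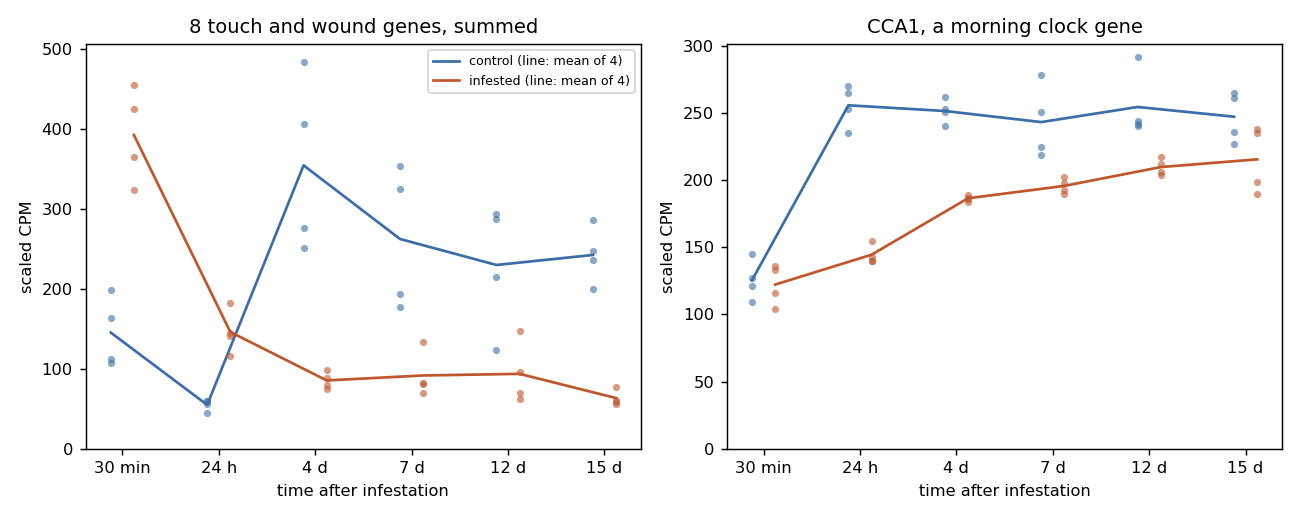
Summed scaled CPM of 8 touch and wound genes (left) and scaled CPM of CCA1 (right) in each library against harvest time; points are libraries and lines join means of 4. Control touch sums rise from 44.5 to 60.1 CPM at 24 h to 251 to 484 CPM at 4 d, and CCA1 in control plants lies above infested plants from 24 h to 12 d.

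Markers of organs were compared as well. None of 6 genes of dividing cells was called between infested and control plants at any time, and their sum lay between 61 and 115 CPM in all groups. From 12 d to 15 d, 5 of them fell in control and 4 in infested plants, and none rose. Root markers summed to at most 0.665 CPM in any library, and at least 2 of 5 were at 0 in every group. Of 5 leaf genes 1 was lower at 30 min, 4 at 24 h and 3 at 4 d, 1 was higher and 1 lower at 7 d and at 12 d, and 4 were higher at 15 d. Their sum was 42700 to 46800 CPM in control and 35700 to 37800 CPM in infested libraries at 4 d, and 17500 to 21300 against 21700 to 28600 CPM at 15 d. Of 4 meristem genes tested none was called up to 7 d, 1 was higher and 2 were lower at 12 d and 1 was higher at 15 d, with sums of 188 to 212 CPM in control and 166 to 176 CPM in infested libraries at 12 d. Floral organ genes rose with age, from 3.28 to 4.98 CPM in controls at 30 min to 88 to 101 CPM at 12 d and 103 to 135 CPM at 15 d, the times at which ARR3 had its reads. At 12 d their sum in infested libraries was 59.4 to 81.9 CPM, and 1 of 5 was called lower. Their part in the results was not tested.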

How the data were processed

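RNA of aerial parts was sequenced as read pairs of 150 bases in 48 libraries. The authors deposited whole-number read counts per gene; fastp, HISAT2, featureCounts, DESeq2 and TAIR10 are named in the submitters' processing notes, while versions, annotation, strand use and how reads shared by related genes were treated are not given in those sources. Paired relatives such as ARR8 and ARR9 could therefore share reads. The counts carry no coordinates; names, exon lengths and promoter windows come from RefSeq TAIR10.1, where AT3G48100 (ARR5) is RR5 and AT2G41310 (ARR8) is RR3, and nothing was carried between builds.

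Counts were fitted with edgeR 4.0.16 (R 4.3.3, limma 3.58.1): filterByExpr by group, trimmed mean of M values scaling, 1 coefficient for each of 12 groups, robust quasi-likelihood F-test, two-sided, Benjamini-Hochberg over 22252 genes per comparison. The SE is the log2 fold change divided by the root of F. Log2 CPM used a prior count of 2. The tests were checked on simulated counts. None of 72 replicate pairs was identical, and all differed by more than sampling noise (chi-square per gene 2.57 to 47). Alternatives were DESeq2 1.42.0, other scalings, no filter, each time alone, a replicate block and leaving out each library.

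All 10 genes are named; of each cytokinin list at most 2 genes with the smallest p per time are named with values. The members and lists were chosen with earlier results of these data known. Ratio tests were added after values were seen.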

Additional observations from a re-analysis of the deposited data

Results flagged for a closer look

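The effect of infestation differed between neighbouring harvests for 3 genes. ARR5 changed by -1.30 and ARR7 by -1.18 on the log2 scale from 24 h to 4 d, and ARR16 changed by 0.69 from 30 min to 24 h. Over all 6 times the interaction was called for ARR5 (adjusted p = 3.3e-06, edgeR), ARR7 (3.5e-06), ARR8 (4.1e-06), CKX5 (0.00022), ARR16 (0.0015), ARR15 (0.002) and ARR9 (0.025).

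A single library lay far from the other 3 of its group in 14 of 120 sets of gene and group, where about 6 would arise by chance at 1 in 20. ARR3 accounts for 4 of them at very low counts: the highest library had 0.229 CPM in control plants at 30 min, 0.344 CPM at 24 h and 0.138 CPM at 7 d, and the lowest had 0 CPM in infested plants at 30 min. In infested plants at 30 min ARR5 had 1 low library (3.92 CPM) and ARR7 1 high library (29.6 CPM). ARR6 had 1 high library at 24 h (9.13 CPM). Replicate 1 of the infested plants at 7 d was the high library for both ARR8 (45.2 CPM) and ARR9 (54.1 CPM), and replicate 1 at 12 d was high for ARR4 (103 CPM). At 15 d the low libraries were those of ARR6 (4.95 CPM), ARR9 (31.9 CPM) and ARR15 (3.89 CPM) in infested plants and of ARR15 (3.68 CPM) in controls.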

How the results depend on the processing

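Of 72 results on single genes under 846 alternatives, 796 kept their direction and side of the threshold, and 37 of 42 called results did so in all of theirs. The 15 d comparison was the least steady: the count of genes called higher (1) was 2 with median-of-ratios scaling, 2 with the replicate block and 2 with DESeq2, 0 with library totals and 0 with that time alone, and the count called lower (2) was 0 with that time alone. Leaving out 1 library gave 0 to 2 higher and 0 to 3 lower there. With library totals, which moved the median log2 fold change of all genes from 0.06 to 0.27 for control 15 d against control 30 min, 1 gene in place of 2 was lower, and ARR4 (0.12) and ARR7 (0.01) changed sign; neither had been called. Values near 0 changed sign when 1 library was left out, with ranges of -0.13 to 0.07 (ARR5) and -0.05 to 0.37 (ARR6) at 30 min, -0.03 to 0.15 (ARR5) and -0.12 to 0.19 (ARR16) at 24 h, -0.10 to 0.12 (ARR16) at 7 d, and -0.20 to 0.08 (ARR15) and -0.17 to 0.04 (CKX5) at 12 d. The causes were not tested. Pooled over the times, same-numbered control and infested libraries did not deviate together (24 pairs, r from -0.503 to 0.252, median 0.0155, 4 over 0.1). The numbers were thus not taken as pairs. By time, same-numbered r was 0.0324 to 0.0778 at 4 d and 0.252, 0.142, 0.143 and -0.00657 at 7 d. Different-numbered r reached 0.0394 at 4 d and 0.147 at 7 d. The replicate block moved no other count of called genes at the 6 times. Counts of ARR3 limit what can be said of that gene.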
